A study of Mus musculus with 7 samples.

Results

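The intervals around Il2ra and Cd69, genes for surface proteins that mark activated T cells, were examined for binding of BRG1, the ATP-hydrolysing subunit of SWI/SNF chromatin remodelling complexes. The intervals were chosen by gene and coordinates alone, as mm9 chromosome 2, 11530001 to 11630000 for Il2ra, and chromosome 6, 129170001 to 129270000 for Cd69. Together they hold 200 of the 2638947 bins of 1 kb in the genome without chromosome Y, and 1000 of its 13194689 windows of 200 bp. The series is a chromatin immunoprecipitation and sequencing (ChIP-seq) study of mouse CD4+ T helper cells of strain Balb/C, with 7 libraries and 1 library per group. The stimulated groups were Th17, Th1 and Th2 cells given 50 ng/ml PMA plus 500 ng/ml ionomycin over 1.5 h, a drug pair that stands in for signalling through the T cell receptor. The resting groups were Th1 and Th2 cells without that treatment, and the naive group was CD4+CD62L+ cells of 95% purity taken straight from spleens and lymph nodes of mice aged 4 to 6 weeks. The input library was pooled CD4+ T helper cell DNA with no immunoprecipitation, and the other libraries used the BRG1 antibody J1. Resting Th17 cells were not analysed here, so stimulation is compared in Th1 and Th2.

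All effector cells had been grown in culture from naive cells in 1 round with antibodies to CD3 and CD28, so Th cells called resting had already been activated in the past. Th1 cultures received IL-12 at 1 ng/ml and anti-IL-4 at 10 µg/ml, and Th2 cultures IL-4 at 10 ng/ml and anti-IFNγ at 10 µg/ml. Both had plate-bound anti-CD3 at 1 µg/ml and anti-CD28 at 2 µg/ml, and were expanded in IL-2 at 100 U/ml, the ligand of the receptor that Il2ra helps to form. Th17 cultures had soluble anti-CD3 at 4 µg/ml and anti-CD28 at 1 µg/ml, both blocking antibodies at 10 µg/ml, 100 ng/ml IL-6, 10 ng/ml IL-1β, 1 ng/ml TGF-β and later 10 ng/ml IL-23. Per the labels, no IL-2 is named for the Th17 cultures. Purity after culture is not given in the sources used here, and reads of DNA cannot show cell identity.

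Il2ra encodes CD25, the alpha chain of the IL-2 receptor, which joins the beta chain and the common gamma chain to bind IL-2 with high affinity. It is low on most naive CD4+ T cells and is induced through the T cell receptor, and IL-2 itself keeps it on through STAT5. Cd69 encodes a C-type lectin-like membrane protein that appears on the surface very soon after activation and holds T cells in lymphoid tissue by removing the receptor S1PR1. SWI/SNF complexes use ATP to move nucleosomes at promoters and enhancers.

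In the gene order of GRCm38, Rbm17 precedes Il2ra and Il15ra, the gene for the alpha chain of the IL-15 receptor, follows it. Cd69 stands between the C-type lectin genes Clec2d and Clec2m. The reads are on mm9, another build, so exons, introns and gene ends could not be placed on them, and no peak is assigned here to a promoter, an intron or a neighbouring gene. Of the 2 genes, 1, Il2ra, had an entry in the RefSeq promoter table (GRCm38.p6, chr2:11642542-11642841, plus strand, with 250 bases before and 50 after the gene start). That sequence is shown because it is the control region of the gene closest to its start, and its coordinates must not be read against the mm9 positions below. Capitals mark matches to the motifs searched on both strands.
Il2ra promoter: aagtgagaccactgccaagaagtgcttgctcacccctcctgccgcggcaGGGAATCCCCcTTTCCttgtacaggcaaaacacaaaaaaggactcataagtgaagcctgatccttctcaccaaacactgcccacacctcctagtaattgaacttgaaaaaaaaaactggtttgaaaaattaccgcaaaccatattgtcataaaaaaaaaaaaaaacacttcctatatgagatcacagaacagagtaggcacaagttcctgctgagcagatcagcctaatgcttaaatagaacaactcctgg
The NF-kB motif GGGANNNNCC matched 1 time, at position 50 of the 300 bases on the plus strand. The NFAT motif GGAAA matched 1 time, at position 61 on the minus strand, and the 2 matches did not overlap. NF-kB and NFAT are factors switched on by PMA and ionomycin. Of 32851 promoter sequences of the same length, 20.7% held the first motif and 61.3% the second. The AP-1 motif TGANTCA (7.81% of promoters) and the STAT motif TTCNNNGAA (8.30%) had no match in this window.

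Reads were counted once per start and strand, giving distinct reads, and are expressed as RPM, distinct reads per 1000000 distinct reads of the library. The distinct reads numbered 7892944 in stimulated Th17, 3917492 in stimulated Th1 cells, 4261900 in stimulated Th2 cells, 1808000 in resting Th1, 1340208 in resting Th2, 2071800 in naive and 3531867 in input. Reads repeating a start and strand made up 10.2% to 11.8% of the stimulated libraries, 28.5% to 41.4% of the resting and naive ones and 7.23% of input, so state and library quality cannot be told apart. With 1 library per group, every ratio compares libraries, no p-value is given, and each 95% interval covers counting error only.

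The Il2ra interval was enriched over input in every effector library and stood at the input level in naive cells. It held 1527 distinct reads in stimulated Th17, 1027 in stimulated Th1 cells, 1208 in stimulated Th2 cells, 415 in resting Th1, 366 in resting Th2, 183 in naive and 314 in input. Scaled to depth, that was 193.5, 262.2, 283.4, 229.5, 273.1, 88.3 and 88.9 RPM in the same order. The Poisson intervals of naive and input overlapped, and the 5 effector libraries all lay above both. Over input, the ratio was 2.18 in stimulated Th17 (1.93 to 2.46), 2.95 in stimulated Th1 (2.60 to 3.36) and 3.19 in stimulated Th2 (2.81 to 3.62). At rest it was 2.58 in Th1 (2.22 to 2.999) and 3.07 in Th2 (2.63 to 3.58), and in naive it was 0.993 (0.823 to 1.20). Genome-wide, the median ratio to input in 10 kb bins without called windows was 0.852 in naive and 0.687 to 0.791 in the effector libraries. The interval ratios over input therefore depend on the scaling. Within the Il2ra interval, outside the regions called below, the effector libraries stood at 2.04 to 2.93 times input. Among the 24672 genome blocks of 100 kb that held 50 or more input reads, the interval lay above 96.3% of blocks in stimulated Th17, 99.1% in stimulated Th1 cells, 99.7% in stimulated Th2 cells, resting Th1 99.7% and resting Th2 99.6%, against 51.2% in naive.

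The Cd69 interval was enriched over input in all 6 BRG1 libraries, naive included. It held 1056 distinct reads in stimulated Th17, 854 in stimulated Th1 cells, 1080 in stimulated Th2 cells, 383 in resting Th1, 416 in resting Th2, 272 in naive and 249 in input. The levels were 133.8, 218.0, 253.4, 211.8, 310.4, 131.3 and 70.5 RPM in that order. Resting Th2 was the highest library, and stimulated Th17 and naive were the lowest of the BRG1 libraries, with Poisson intervals that overlapped. Over input, the ratio was 1.90 in stimulated Th17 (1.65 to 2.19), 3.09 in stimulated Th1 cells, 3.59 in stimulated Th2 cells, 3.005 in resting Th1, 4.40 in resting Th2 (3.75 to 5.17) and 1.86 in naive (1.56 to 2.22). In naive cells the Cd69 interval lay above 99.2% of the 100 kb blocks, where the Il2ra interval lay near the middle. In resting Th2 it lay above 99.97% of blocks.

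**Figure D1:**
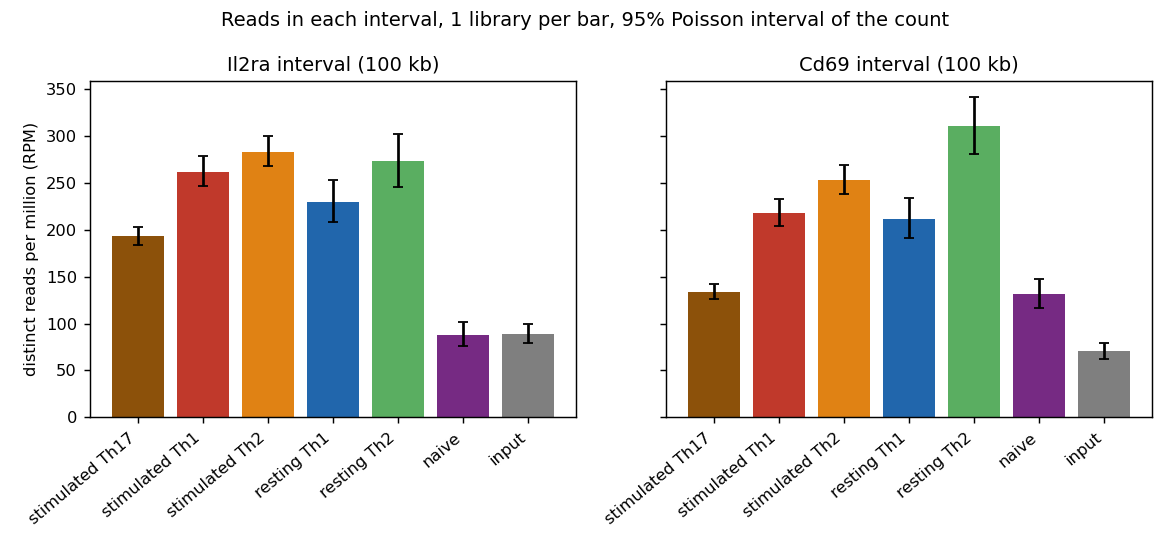
RPM in the 100 kb Il2ra interval (left) and Cd69 interval (right), 1 bar per library, with the 95% Poisson interval of the count. In the Il2ra panel naive (88.3 RPM) is level with input (88.9 RPM), and in the Cd69 panel naive (131.3 RPM) is above input (70.5 RPM).

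By RPM, the order at Il2ra was stimulated Th2, resting Th2, stimulated Th1, resting Th1, stimulated Th17, input and naive. The Poisson intervals of neighbours overlapped except between resting Th1 and stimulated Th17 and between stimulated Th17 and input. At Cd69 the order was resting Th2, stimulated Th2, stimulated Th1, resting Th1, stimulated Th17, naive and input. There the intervals of neighbours were apart between resting and stimulated Th2, between stimulated Th2 and stimulated Th1, between resting Th1 and stimulated Th17, and between naive and input. Input itself differed between the intervals, 88.9 RPM at Il2ra and 70.5 RPM at Cd69, so levels are compared within an interval.

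BRG1 reads were spread over the first part of the Il2ra interval rather than held in a few peaks. In segments of 10 kb, every segment of the first 60 kb had a ratio to input whose interval lay above 1 in all 5 effector libraries. Between 30 and 40 kb the ratio was 2.08 in stimulated Th17 cells, 3.04 in stimulated Th1 cells, 3.83 in stimulated Th2 cells, 3.97 in resting Th1, 6.18 in resting Th2 and 0.906 in naive. Between 70 and 80 kb it was 1.24, 1.45, 0.793, 0.849, 0.573 and 0.371 in the same order. There the interval held 1 in the 5 effector libraries and lay below 1 in naive. In naive, 1 of 10 segments had an interval above 1, the one from 40 to 50 kb with a ratio of 1.98, and 3 had an interval below 1. Each other library had 7 of 10 above 1 and 0 below.

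In the Cd69 interval the segment from 10 to 20 kb had the highest RPM of the 10 segments in all 6 BRG1 libraries. Its ratio to input was 3.87 in stimulated Th17, 6.07 in stimulated Th1 cells, 6.46 in stimulated Th2 cells, 6.32 in resting Th1, 9.22 in resting Th2 and 3.16 in naive. The last segment, from 90 to 100 kb, had ratios of 3.76, 9.92, 8.87, 5.08, 7.38 and 2.90 in that order, but it held only 10 input reads. The segment from 30 to 40 kb was near input, between 0.787 in naive and 1.72 in resting Th2. The interval of the ratio lay above 1 in 6 of 10 segments in stimulated Th17, 6 in stimulated Th1 cells, 9 in stimulated Th2 cells, 8 in resting Th1, 8 in resting Th2 and 4 in naive.

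**Figure D2:**
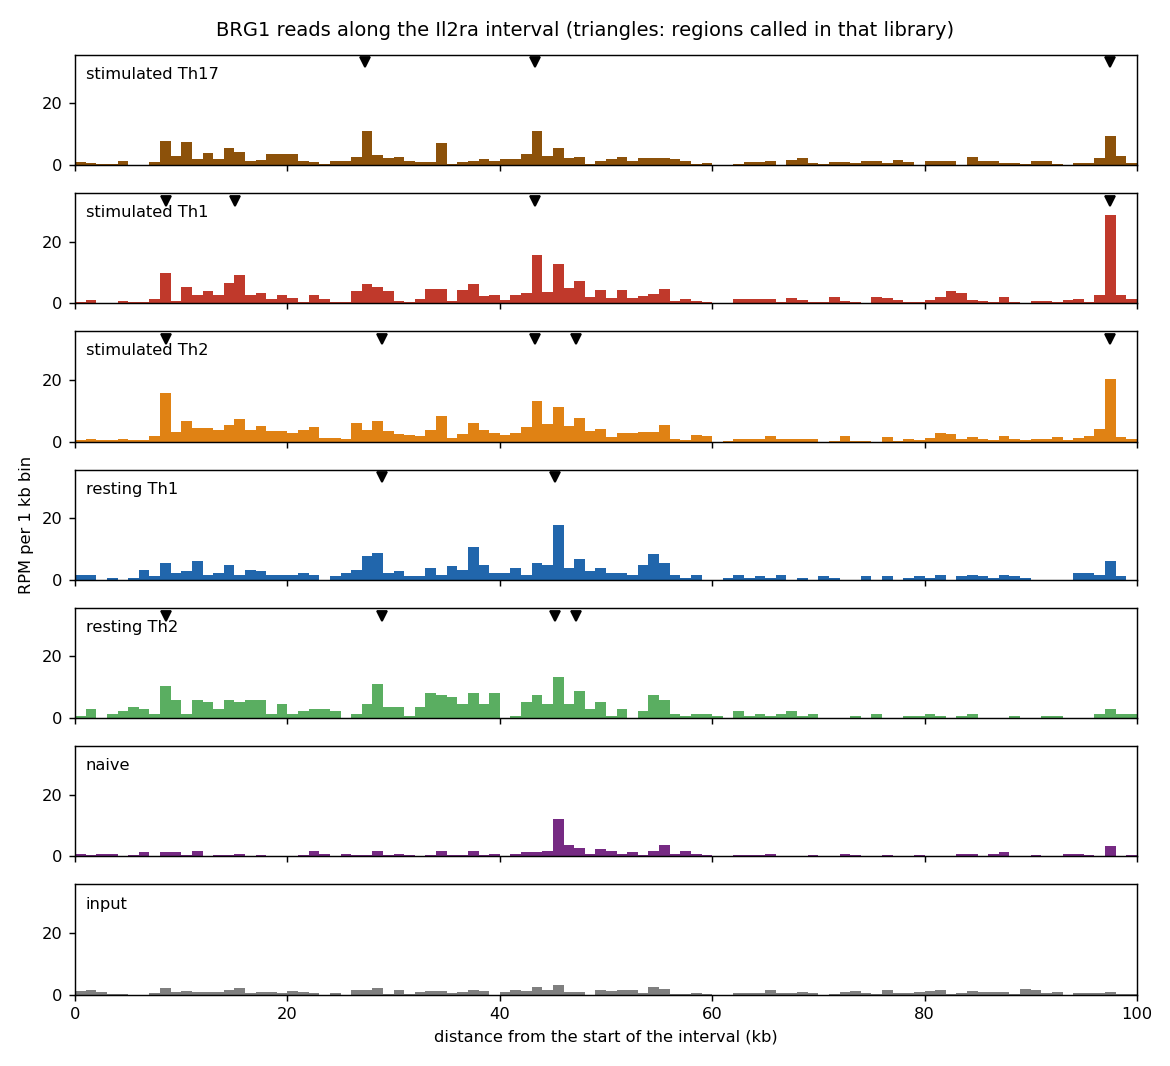
RPM in 1 kb bins along the Il2ra interval (horizontal axis: distance from the interval start in kb) in 7 libraries on a shared vertical axis; triangles mark regions called in that library at equal depth. Reads spread over the first 60 kb in effector libraries, and the bin 97 kb from the start reaches 28.6 RPM in stimulated Th1 and 20.2 RPM in stimulated Th2.

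**Figure D3:**
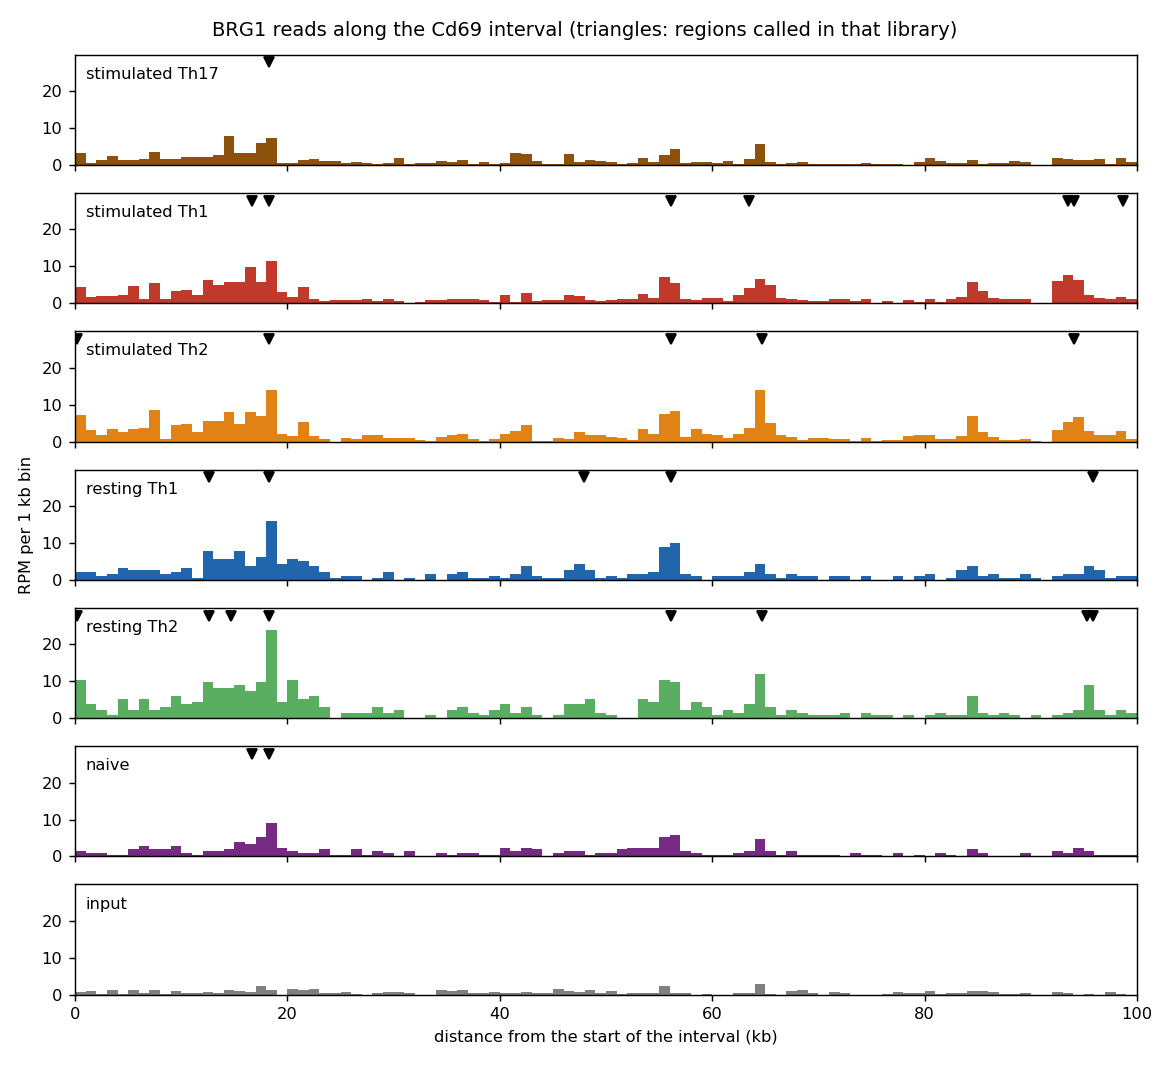
The same for the Cd69 interval, in RPM per 1 kb bin against distance from the interval start in kb. The bin 18 kb from the start is the highest of stimulated Th1, stimulated Th2, resting Th1, resting Th2 and naive, at 11.5, 14.1, 16.04, 23.9 and 9.17 RPM in that order.

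Windows of 200 bp were called over input where their count passed a Poisson tail of 1e-05 with every BRG1 library thinned to 1340208 reads, and neighbouring calls at most 1 window apart were merged into regions. In the Il2ra interval 3 windows were called in stimulated Th17, where 0.0507% of windows were called genome-wide. A further 5 were called in stimulated Th1 (0.105% genome-wide), 8 in stimulated Th2 (0.0958%), 3 in resting Th1 (0.0597%), 4 in resting Th2 (0.0735%) and 0 in naive (0.0248%). As shares of the 500 windows these were 0.6% in stimulated Th17, 1% in stimulated Th1 cells, 1.6% in stimulated Th2 cells, 0.6% in resting Th1 and 0.8% in resting Th2. The Cd69 interval had 1 called window in stimulated Th17, 8 in stimulated Th1 cells, 6 in stimulated Th2 cells, 6 in resting Th1, 9 in resting Th2 and 2 in naive. With all distinct reads, stimulated Th17, the deepest library, had 24 called windows at Il2ra and 13 at Cd69. Counts of stimulated Th1 and Th2 rose as well. These counts were made at unequal depth and have no genome-wide share beside them, so they do not rank the libraries.

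The called windows made 8 regions at Il2ra and 14 at Cd69. At Il2ra, 4 were called in stimulated libraries only, 1 in unstimulated libraries only and 3 in both states. At Cd69 the numbers were 4, 5 and 5. Of 25795 regions joined in the same way over the genome, 50.8% were called in stimulated libraries only, 24.3% in unstimulated libraries only and 24.9% in both states. Regions of the Il2ra interval held 15.7% to 26.1% of its reads in stimulated libraries, 14.2% to 19.1% in the resting and naive ones and 10.2% of its input reads. The regions were called on these reads, so their counts below describe them and test nothing.

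The Il2ra region with the most RPM in each stimulated library lay 97 kb from the start of the interval, on chromosome 2, 11627001 to 11628000, close to its far edge. At 1000 bp it was also the longest. It held 75 distinct reads in stimulated Th17, 112 in stimulated Th1 cells, 86 in stimulated Th2 cells, 11 in resting Th1, 4 in resting Th2, 7 in naive and 3 in input. All stimulated libraries were high and all others low. The 200 bp window with the most RPM in it, 11627201 to 11627400, had 71 reads in stimulated Th1, a count reached by 157 windows in the genome, against 2 in resting Th1. In RPM the region was higher after stimulation by 4.70-fold in Th1 (2.53 to 9.68) and by 6.76-fold in Th2 (2.55 to 25.4). Stimulated Th17 was 0.332 times stimulated Th1 (0.245 to 0.449) and 0.471 times stimulated Th2 (0.341 to 0.649). Because Il15ra follows Il2ra in the gene order, the gene nearest to this region was not determined.

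A narrower region at 43.2 kb, 11573201 to 11573400, was likewise called in all 3 stimulated libraries and in none of the others. It held 49 reads in stimulated Th17, 38 in stimulated Th1 cells, 30 in stimulated Th2 cells, 5 in resting Th1, 5 in resting Th2, 2 in naive and 2 in input. In stimulated Th17 the count of 49 was reached by 880 windows in the genome. The ratio of stimulated to resting cells was 3.51 in Th1 (1.38 to 11.4) and 1.89 in Th2 (0.725 to 6.23), so the interval left out 1 in Th1 only; the difference between subsets was not tested. Stimulated Th17 and stimulated Th2 were close here, with a ratio of 0.882 (0.549 to 1.44).

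A region about 2 kb further on, 11575001 to 11575400, held 30 reads in stimulated Th17, 36 in stimulated Th1 cells, 30 in stimulated Th2 cells, 26 in resting Th1, 15 in resting Th2, 21 in naive and 8 in input. In RPM it was 3.80, 9.19, 7.04, 14.4, 11.2, 10.1 and 2.27 in that order. The ratio of stimulated to resting cells was 0.639 in Th1 (0.375 to 1.10) and 0.629 in Th2 (0.328 to 1.26), and both intervals held 1. It was called in the resting libraries only, and its 1 kb bin was the highest of the whole interval in resting Th1, resting Th2 and naive, and also in input, with 11 reads. This bin was the site of the Il2ra interval with most BRG1 reads in naive cells, 25 of 183. The 8 input reads here all lay on the minus strand.

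The region at 8.4 kb, 11538401 to 11538800, was called in stimulated Th1, stimulated Th2 and resting Th2. It held 29 reads in stimulated Th17, 29 in stimulated Th1 cells, 44 in stimulated Th2 cells, 6 in resting Th1, 10 in resting Th2, 1 in naive and 8 in input. In RPM that was 3.67, 7.40, 10.3, 3.32, 7.46, 0.483 and 2.27 in the same order. The ratio of stimulated to resting cells was 2.23 in Th1 (0.910 to 6.57) and 1.38 in Th2 (0.686 to 3.08), and both intervals held 1. The region at 28.8 kb, 11558801 to 11559000, was called in stimulated Th2 and both resting libraries. It held 11, 8, 17, 10, 7, 0 and 4 reads in the same order. In RPM that was 1.39, 2.04, 3.99, 5.53, 5.22, 0 and 1.13. The ratio of stimulated to resting cells was 0.369 in Th1 (0.127 to 1.04) and 0.764 in Th2 (0.301 to 2.18), and both intervals held 1. Counted against a floor of 3 reads in naive, resting Th1 was 3.82-fold naive here (lower bound of the counting interval 2.57). Resting Th2 was 3.61-fold naive on the same floor (2.23). The other 3 regions of this interval, at 15, 27.2 and 47 kb, held 0 to 22 distinct reads in each library.

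In the Cd69 interval a region called in all 6 BRG1 libraries lay 18 kb from the start, on chromosome 6, 129188001 to 129188600. It held 55 reads in stimulated Th17, 43 in stimulated Th1 cells, 55 in stimulated Th2 cells, 28 in resting Th1, 26 in resting Th2, 16 in naive and 4 in input. In RPM that was 6.97, 10.98, 12.9, 15.5, 19.4, 7.72 and 1.13 in that order. The unstimulated effector libraries were the highest, but the ratio of stimulated to resting cells, 0.709 in Th1 (0.430 to 1.19) and 0.665 in Th2 (0.410 to 1.10), had intervals that held 1. Against naive, resting Th1 was 2.01-fold higher (1.05 to 3.97) and resting Th2 2.51-fold higher (1.30 to 5.01).

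The region at 56 kb, 129226001 to 129226200, was called in stimulated Th1, stimulated Th2 and both resting libraries. It held 6 reads in stimulated Th17, 11 in stimulated Th1 cells, 15 in stimulated Th2 cells, 11 in resting Th1, 6 in resting Th2, 3 in naive and 0 in input. Most of its reads were on the minus strand, 11 of 11 in stimulated Th1 and 13 of 15 in stimulated Th2. The other 12 regions of this interval held 0 to 28 distinct reads in each library.

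**Figure D4:**
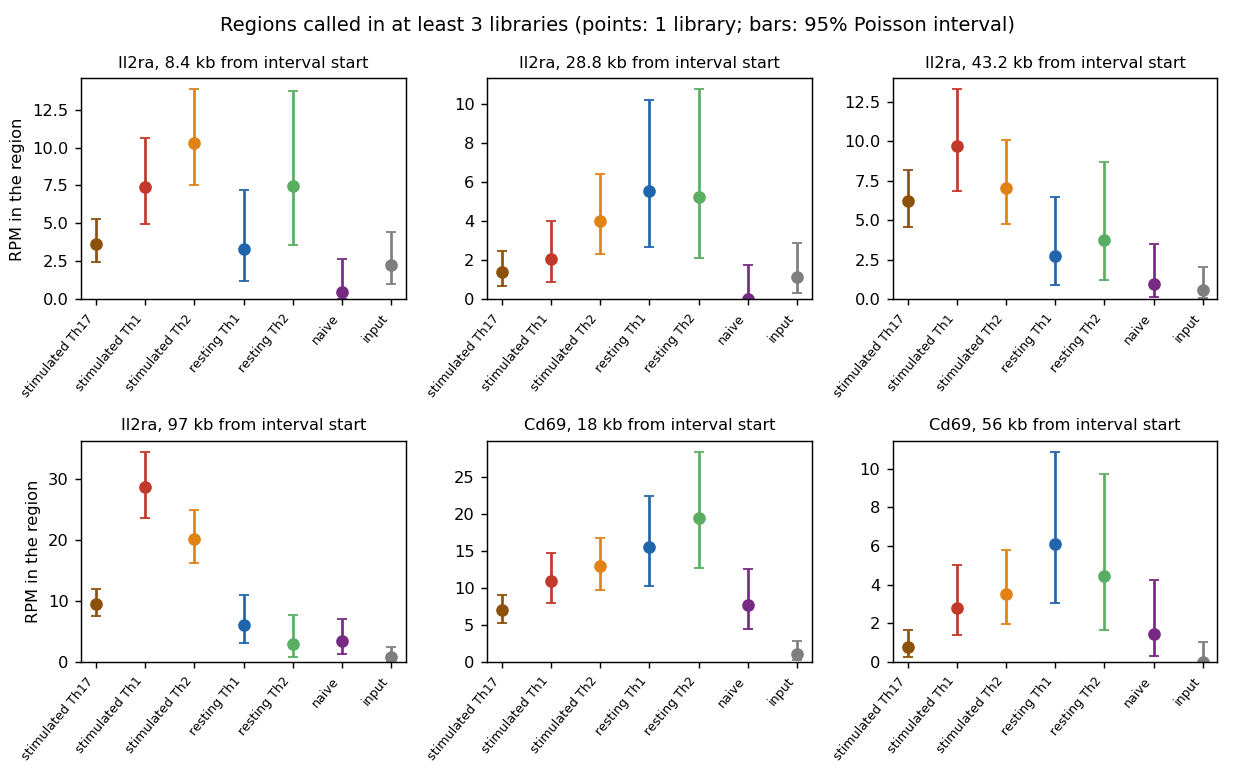
RPM in the 6 regions called in at least 3 libraries, 1 point per library with its 95% Poisson interval; each panel has its own vertical axis from 0. The Il2ra regions at 43.2 kb and 97 kb are high in the stimulated libraries, and the Cd69 region at 18 kb is above input in all BRG1 libraries.

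Over the whole intervals, ratios of stimulated to resting cells lay between 0.816 and 1.14. Called bins are set against the genome-wide share further below. In Th1 the ratio of stimulated to resting RPM was 1.14 at Il2ra (1.02 to 1.28) and 1.03 at Cd69 (0.911 to 1.16). In Th2 it was 1.04 at Il2ra (0.923 to 1.17) and 0.816 at Cd69 (0.728 to 0.916). The median 100 kb block had a ratio of 0.736 in Th1 and 0.869 in Th2, and the intervals lay above 77.6% and 71.4% of blocks in Th1 and 68.0% and 43.5% in Th2, Il2ra before Cd69. The median ratio over tested 1 kb bins, by contrast, was 1.62 for Th1 (a log2 shift of 0.69) and 1.31 for Th2 (0.39). Relative to those medians the Il2ra ratio was 0.707 in Th1 and 0.792 in Th2 and the Cd69 ratio 0.637 and 0.623. The direction for Il2ra in both subsets thus depended on the scale. Tested bins needed at least 10 reads in the pair, so the deeper library weighed more in picking them. Their median is therefore not a neutral scale. At equal depth the Th1 ratio at Il2ra was 1.10 (0.941 to 1.29) and relative to 10 kb bins without called windows 1.03 (0.919 to 1.16), with intervals that held 1.

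Bins of 1 kb with at least 10 reads in a pair were called if their ratio reached 3-fold with a counting interval that did not hold 1. A bin that passed this minimum through its higher library alone was selected towards a difference. Counts of called bins are therefore read only against the genome-wide share under the same rule. In Th1, 3 of 46 tested bins at Il2ra (6.52%) and 3 of 42 at Cd69 (7.14%) were higher after stimulation, below the 16.7% called higher genome-wide. In each interval 1 bin was lower, 2.17% and 2.38%, near the background of 1.97%. In Th2, 3 of 49 at Il2ra (6.12%) and 1 of 49 at Cd69 (2.04%) were higher, against 8.29% genome-wide. There, 1 bin at Il2ra (2.04%) and 3 at Cd69 (6.12%) were lower, against 2.13%. Over both intervals Th1 had 6 bins up and 2 down, and Th2 had 4 up and 4 down. Relative to the median ratio Th1 had 2 up and 9 down and Th2 had 1 up and 7 down. Relative to 10 kb bins without called windows, Th2 had 3 up and 6 down. Genome-wide shares on these other scales are not given, so these counts show the dependence on scale only.

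The bin from 11627001 was the highest by its lower bound at Il2ra in both subsets, as above. In Th1 it was followed by the bin from 11545001, with 36 reads in stimulated and 3 in resting Th1, a ratio of 5.54 (1.75 to 28.1). The bin from 11612001 had 15 reads in stimulated Th1 and 0 in resting Th1. Counted against a floor of 3 reads, that was a 2.31-fold rise (lower bound of the counting interval 1.66). In Th2 the next were the bins from 11540001, with 28 reads in stimulated and 2 in resting Th2, and from 11556001, with 26 and 2. At Cd69 the higher bins of Th1 stood side by side at 92 to 95 kb. They had 24, 30 and 25 reads in stimulated Th1 against 2, 3 and 3 in resting Th1, from 129262001, 129263001 and 129264001, with ratios of 5.54, 4.62 and 3.85. In Th2 the higher bin was the one from 129177001, with 36 reads in stimulated and 3 in resting Th2, a ratio of 3.77 (1.19 to 19.1). The bins at 92 to 95 kb were not called in Th2 but also had more reads after stimulation. They held 13, 23 and 28 reads in stimulated Th2 (3.05, 5.40 and 6.57 RPM). Resting Th2 had 1, 2 and 3 reads there (0.746, 1.49 and 2.24 RPM).

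The 2 stimulation comparisons share no library. The bin from 11627001 was called higher in both, which is 16.7% of the higher bins of Th1 and 25% of those of Th2. Both lower bins of Th1 were also lower in Th2, where they are 50% of the lower bins. Genome-wide, 27.8% of the higher bins of Th1 and 50.7% of those of Th2 were shared, and 16.6% of the lower bins of Th1 and 13.8% of those of Th2, so with these few bins the shared calls are a description only. At 11565001 the counts were 3 reads in stimulated and 8 in resting Th1, and 5 in stimulated and 9 in resting Th2, with ratios of 0.173 (0.0296 to 0.721) and 0.175 (0.0460 to 0.580). At 129190001, about 2 kb past the shared Cd69 region, the counts were 7 and 10 in Th1 and 6 and 14 in Th2, with ratios of 0.323 (0.104 to 0.940) and 0.135 (0.0425 to 0.373). The other lower bins of Th2 at Cd69 started at 129265001, with 12 reads in stimulated and 12 in resting Th2, and at 129192001, with 6 and 8.

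At Il2ra the called regions and the rest of the interval were compared. The 8 regions together had 268 reads in stimulated and 66 in resting Th1, a ratio of 1.87 (1.43 to 2.49), while the remaining 97000 bp had a ratio of 1.00 (0.883 to 1.14). In Th2 the region ratio was 1.43 (1.06 to 1.97), with 237 and 52 reads, and the ratio outside was 0.972 (0.855 to 1.11). These ratios rested on the region at 97 kb. Without it they were 1.31 in Th1 (0.957 to 1.81) and 0.989 in Th2 (0.711 to 1.40), an alternative chosen after the data were seen. The 14 Cd69 regions had ratios of 0.796 in Th1 (0.600 to 1.06) and 0.801 in Th2 (0.608 to 1.07). The regions were called on these same reads, so their ratios are a description only.

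**Figure D5:**
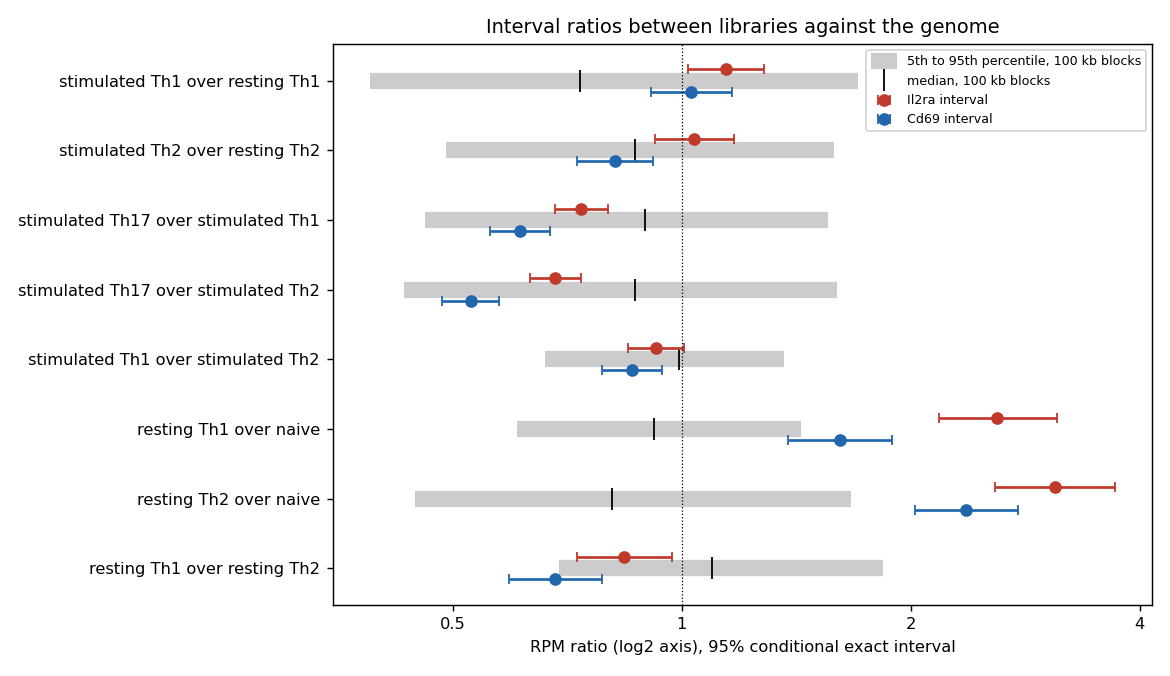
RPM ratio between libraries over each whole interval (points, 95% conditional exact interval, log2 axis), with the median and the range from the 5th to the 95th percentile of 24672 blocks of 100 kb. The resting over naive ratios at Il2ra, 2.60 in Th1 and 3.09 in Th2, lie beyond the 95th percentile.

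Among the 8 pairs of BRG1 libraries compared, the ratios furthest from 1 at Il2ra were those of resting effector cells to naive cells. Past activation, culture, cytokines and added IL-2 all differed between these cells and cannot be told apart here. The ratio of resting Th1 to naive was 2.60 (2.18 to 3.11), above 99.95% of 100 kb blocks, and that of resting Th2 to naive was 3.09 (2.58 to 3.71), above 99.7%. At Cd69 the ratios were 1.61 (1.38 to 1.89) and 2.36 (2.02 to 2.77), above 97.9% and 98.9% of blocks. The median block had ratios of 0.920 and 0.810. Relative to the median ratio of tested bins, 1.38 for Th1 (a log2 shift of 0.46) and 1.55 for Th2 (0.63), the Il2ra ratios were 1.89 and 2.00 and the Cd69 ratios 1.17 and 1.53, so all stayed above 1. The 2 comparisons share the naive library, and the naive library had the highest share of repeated reads, 41.4%; its part in the result was not tested. With all reads kept the Il2ra ratios were 2.66 and 3.27, and at equal depth 2.56 and 3.08.

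Among tested bins, 7 of 17 at Il2ra (41.2%) exceeded naive in resting Th1, against 10.0% genome-wide, and 2 of 19 at Cd69 (10.5%). In Th2 they were 10 of 19 at Il2ra (52.6%) and 7 of 21 at Cd69 (33.3%), against 15.9% genome-wide. No bin of either interval was lower in either resting library, where 1.08% and 1.33% were lower genome-wide. In Th1 the highest by lower bound were the bins from 11557001, with 14 reads in resting Th1 and 1 in naive, a ratio of 16.04 (2.44 to 678), from 11567001, with 19 and 4, and from 11558001, with 16 and 4. In Th2 they were the bins from 11563001, with 11 reads in resting Th2 cells and 1 in naive cells (ratio 17.0, 2.47 to 732), from 11538001, with 14 and 3, and from 11565001, with 9 and 1. At Cd69 the bin from 129182001 was called in both, with 14 reads in resting Th1, 13 in resting Th2 and 3 in naive. The others were the bin from 129191001 in Th1, with 9 reads in resting Th1 and 2 in naive, and in Th2 those from 129170001 and 129190001, each holding 14 reads in resting Th2 cells and 3 in naive cells. Single bins rested on few reads: with at least 20 reads in the pair, 2 bins were called in Th1 and 0 in Th2. A genome-wide share under that minimum is not given.

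Most of the reads behind the Il2ra difference lay outside the called regions. Outside the called regions the ratio to naive was 2.70 in resting Th1 (2.22 to 3.30) and 3.28 in resting Th2 (2.69 to 4.02), and inside them 2.16 (1.41 to 3.36) and 2.30 (1.47 to 3.63). At Cd69 the ratios were 1.46 (1.23 to 1.74) and 2.23 (1.88 to 2.64) outside. Inside they were 2.70 (1.78 to 4.16) and 3.32 (2.18 to 5.14). Most of the reads behind the Cd69 difference also lay outside, with 167.6 RPM in resting Th1, 255.9 in resting Th2 and 114.9 in naive. Inside, the levels were 44.25, 54.47 and 16.41 RPM in that order. The regions cover 3000 bp of the Il2ra interval and 4000 bp of the Cd69 interval. The regions were called on these same reads, some of them in resting libraries only, which favours higher inside ratios over naive. The difference between inside and outside was not tested and is not read as a pattern.

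Scaled to depth, resting Th1 was lower than resting Th2 at both genes. The ratio was 0.841 at Il2ra (0.729 to 0.970) and 0.682 at Cd69 (0.592 to 0.786), above 17.0% and 4.63% of blocks. Relative to the median ratio of tested bins, 0.890 (a log2 shift of -0.17), they were 0.945 (0.819 to 1.09) and 0.767, so at Il2ra the interval then held 1. No bin was higher in Th1, against 1.65% genome-wide. In favour of Th2, 2 of 30 bins were called at Il2ra (6.67%) and 1 of 27 at Cd69 (3.70%), against 5.05%. They were the bin from 11564001, with 3 reads in resting Th1 and 10 in resting Th2, the bin from 11569001, with 4 and 11, and the bin from 129170001, with 4 and 14.

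Stimulated Th1 and stimulated Th2 were close in total reads per depth, though at Cd69 the counting interval of their ratio left out 1. The ratio of stimulated Th1 to stimulated Th2 was 0.925 at Il2ra (0.850 to 1.01) and 0.860 at Cd69 (0.786 to 0.942), with a median block at 0.992. At equal depth the Cd69 ratio was 0.916 (0.782 to 1.07), with an interval that held 1. At Il2ra 1 of 60 bins was higher in Th1, against 2.02% genome-wide, and 3 were lower (5%), against 4.04%. The higher one, from 11613001, had 13 in stimulated Th1, against 3 in stimulated Th2. The lower ones, from 11551001, 11561001 and 11539001, had 2, 1 and 3 reads in stimulated Th1 against 16, 9 and 13 in stimulated Th2. At Cd69 0 of 56 bins were higher and 2 were lower (3.57%), from 129211001, with 1 read in stimulated Th1 cells and 12 in stimulated Th2 cells, and from 129228001, with 3 and 14.

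Scaled to depth, stimulated Th17 cells were lower at both genes than the other stimulated cells. Against stimulated Th1 the ratio was 0.738 at Il2ra (0.681 to 0.800) and 0.614 at Cd69 (0.560 to 0.672). Against stimulated Th2 it was 0.683 (0.632 to 0.737) and 0.528 (0.485 to 0.575). The median block had ratios of 0.895 and 0.869, and the Cd69 interval lay above 19.7% and 13.6% of blocks and the Il2ra interval above 33.0% and 31.4%. Relative to the median ratios of tested bins, 1.24 and 1.26 (log2 shifts of 0.31 and 0.33), the ratios were 0.595 and 0.495 against Th1. Against Th2 they were 0.542 and 0.419. Stimulated Th17, the deeper library, weighed more in picking those bins, so that scale is not neutral. The 2 comparisons share the Th17 library, which was also the deepest. Its culture differed in cytokines, antibody doses and the form of anti-CD3, and no IL-2 is named for it. These differences cannot be told apart from the subset, and their part was not tested.

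At Il2ra 8 of 77 bins (10.4%) and at Cd69 12 of 65 (18.5%) were lower in stimulated Th17 than in stimulated Th1, against 3.14% genome-wide. Against stimulated Th2 they were 8 of 79 (10.1%) and 12 of 68 (17.6%), against 4.41%. In each interval and comparison 1 bin was higher, against 6.96% and 7.11% genome-wide. At equal depth 5 bins were called against Th1 and 9 against Th2 over both intervals and directions, in place of 22 each. A genome-wide share at that depth is not given. The lowest against Th1 at Il2ra were the bins from 11613001, with 1 read in stimulated Th17 and 13 in stimulated Th1, from 11567001, with 9 and 24, and from 11627001, with 75 and 112. Against Th2 they were those from 11578001, with 3 reads in stimulated Th17 and 15 in stimulated Th2, from 11567001, with 9 and 26, and from 11552001, with 8 and 20. The higher ones were the bin from 11539001, with 22 reads in stimulated Th17 and 3 in stimulated Th1, and the bin from 11605001, with 10 in stimulated Th17 and 0 in stimulated Th2.

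At Cd69 the lowest bins against Th1 were those from 129255001, with 2 reads in stimulated Th17 and 13 in stimulated Th1, from 129263001, with 12 and 30, and from 129235001, with 7 and 19. Against Th2 they were those from 129254001, with 11 reads in stimulated Th17 and 29 in stimulated Th2, from 129235001, with 7 and 21, and from 129264001, with 11 and 28. The higher bins were the one from 129211001, with 25 reads in stimulated Th17 and 1 in stimulated Th1, and the one from 129216001, with 24 in stimulated Th17 and 3 in stimulated Th2. The cluster at 92 to 95 kb that was higher in stimulated than in resting Th1 was thus low in stimulated Th17, where its 3 bins held 14, 12 and 11 reads.

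By mean RPM over the 6 BRG1 libraries, the 8 highest bins held 24.6% to 35.0% of the reads of the Il2ra interval in BRG1 libraries and 16.6% in input. They started at 11575001, 11627001, 11573001, 11538001, 11558001, 11577001, 11567001 and 11557001. The last of these had 88 reads in stimulated Th17 and 24 in stimulated Th1 cells, 16 in stimulated Th2 cells, 14 in resting Th1, 6 in resting Th2, 1 in naive and 5 in input, and it and the bin from 11573001 were the highest of stimulated Th17. At Cd69 they started at 129188001, 129234001, 129226001, 129225001, 129187001, 129184001, 129186001 and 129185001, so 5 of the 8 lay side by side from 14 to 19 kb. They held 26.4% to 30.2% of the reads of that interval in BRG1 libraries and 18.1% in input. In both intervals the bins were picked by BRG1 reads and not by input, so higher shares than in input follow in part from the pick. The bin from 129184001 was the highest of stimulated Th17, with 61 reads, against 22 in stimulated Th1 cells, 34 in stimulated Th2 cells, 10 in resting Th1, 11 in resting Th2, 4 in naive and 5 in input.

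Over the 100 bins of each interval, Pearson's r of log2 RPM with 1 read added was highest between stimulated Th1 and stimulated Th2, 0.80 at Il2ra and 0.82 at Cd69. At Il2ra it was lowest, among BRG1 libraries, between stimulated Th17 and naive, 0.27, and at Cd69 it was 0.56 for the same pair. Between resting Th1 and resting Th2 it was 0.64 at Il2ra and 0.74 at Cd69. These are descriptions across bins that share mappability and base composition, and depth differed between the libraries.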

How the data were processed

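Each library was deposited as a list of aligned reads, 34 bases long, with chromosome, start, end and strand, per the file headers and values; per the submitters' processing notes they are on mm9, while the aligner and read filters were not found in the labels or files. DNA was fragmented with micrococcal nuclease and sonication, amplified over 18 PCR cycles and size-selected at 250 to 300 bases, per the labels' protocols. With Python 3.11.15, numpy 2.4.6, pandas 2.3.3 and scipy 1.17.1, repeats of a start and strand were dropped, chromosome Y left out, and 5′ ends moved 75 bp towards the fragment centre. Windows of 200 bp were called at a Poisson tail of 1e-05, with the expected count set to the highest of the mean over the genome and the input in 1, 5 and 10 kb, scaled to depth, with BRG1 libraries thinned to 1340208 reads. Ratios used all distinct reads, with 95% conditional exact (Clopper-Pearson) intervals that cover counting error only, since PCR copies carry no molecular identifiers; the floor for 0 reads was 3 counts per library. A bin with 0 reads in 1 library met the fold criterion. Regions called in at least 3 libraries, the 8 highest bins per interval and up to 3 called bins per comparison, interval and direction are named; the region at 45 kb of Il2ra and the bins named for stimulated Th17 levels were chosen after their values were seen. The members, lists and tests were chosen with earlier results of these data known. The steps were tested on simulated data. Other IL-2 receptor and activation genes, and genes of like pattern, were not analysed here, since the annotation at hand is GRCm38. Matplotlib 3.10.9 drew the figures.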

Additional observations from a re-analysis of the deposited data

Results flagged for a closer look

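At Cd69 the stimulated to resting ratios of the 2 subsets lay on either side of 1. The RPM ratio of stimulated to resting cells was 1.03 in Th1 and 0.816 in Th2, from 1 library per group. The interval of the Th1 ratio, 0.911 to 1.16, held 1, and that of the Th2 ratio, 0.728 to 0.916, did not. The difference between the subsets was not tested. Relative to the median ratio of tested bins both ratios were below 1, 0.637 in Th1 and 0.623 in Th2.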

How the results depend on the processing

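No paired analysis was possible because each group has 1 library, and for the same reason no replicate could be left out. Values below are ratios of RPM, with Il2ra before Cd69, or numbers of called bins or windows. Genome-wide shares are given for the main settings only. Counts under other settings thus show how the calls depend on the setting and are not a result about the intervals. The direction of every interval ratio whose counting interval left out 1 was kept when all reads were kept, without the shift, at equal depth and relative to 10 kb bins without called windows. The counting interval came to hold 1 for stimulated over resting Th1 at Il2ra at equal depth (1.10) and relative to the 10 kb bins (1.03), for resting Th1 over Th2 at Il2ra on either rescaling (0.945) and for stimulated Th1 over Th2 at Cd69 at equal depth (0.916). Relative to the median ratio of tested bins, stimulated over resting Th1 at Il2ra reversed, to 0.707; it was 0.637 at Cd69, stimulated over resting Th2 was 0.792 and 0.623, and stimulated Th17 was 0.595 and 0.495 against stimulated Th1 and 0.542 and 0.419 against stimulated Th2. On that scale resting Th1 over naive was 1.89 and 1.17 and resting Th2 over naive 2.00 and 1.53, and 36 bins were called for stimulated Th17 against Th2 and 9 for resting Th2 against naive. That median comes from bins picked by their reads in the pair, and the cause of these shifts was not tested.

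Scaled to 10 kb bins without called windows, stimulated Th17 was 0.608 and 0.506 against stimulated Th1 and 0.571 and 0.442 against stimulated Th2, and resting Th2 over naive was 1.99 at Cd69. Over input, stimulated Th17 was then 2.92 and 2.54, stimulated Th1 4.29 and 4.50, stimulated Th2 4.62 and 5.21, resting Th1 3.30 and 3.85 and resting Th2 3.88 and 5.57. With every library, input included, thinned to equal depth, stimulated Th17 over stimulated Th1 was 0.550 at Cd69, and over input Cd69 was 1.52 in stimulated Th17, 3.02 in stimulated Th2 and 3.75 in resting Th2. Called bins then numbered 5 for stimulation in Th1, 4 in Th2, 5 for stimulated Th17 against Th1, 9 against Th2, 3 for stimulated Th1 against Th2 and 5 for resting Th1 against naive.

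With all reads kept, 17 bins were called for stimulation in Th2, 19 for resting Th1 and 42 for resting Th2 against naive, and 8 for resting Th1 against Th2. Called windows at Il2ra were then 8 in stimulated Th17, 9 in stimulated Th1 cells, 14 in stimulated Th2 cells, 9 in resting Th1, 17 in resting Th2 and 2 in naive, and at Cd69 4 in stimulated Th17, 14 in stimulated Th2 and 22 in resting Th2. With at least 20 reads in the pair, 5 bins were called for stimulation in Th1, 13 for stimulated Th17 against Th2, 0 for stimulated Th1 against Th2, 2 and 0 for resting Th1 and Th2 against naive and 0 for resting Th1 against Th2. The 2-fold rule called 46 bins for stimulated Th17 against Th2. With the bin grid moved by 500 bp, 3 were called for stimulated Th1 against Th2 and 5 for resting Th1 against Th2.

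With all distinct reads used for calling, windows numbered 24 and 13 in stimulated Th17, 15 and 17 in stimulated Th1 cells, 22 and 27 in stimulated Th2 cells, 5 at Il2ra in resting Th1, and 2 and 1 in naive. At a tail of 1e-07 they were 1 and 0 in stimulated Th17, 1 at Cd69 in stimulated Th1, 3 and 3 in stimulated Th2, 2 at Cd69 in resting Th1, 2 and 2 in resting Th2 and 1 at Cd69 in naive. In naive, 1 window was called at Cd69 without the shift and 1 at Il2ra with the window grid moved by 100 bp. Without the region at 97 kb, an alternative chosen after seeing the data, the region ratio of stimulated to resting Th2 at Il2ra was 0.989. Depth limits single bins: resting Th2 had a genome mean of 0.508 distinct reads per kb, and bins called on few reads have wide intervals.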
